A study of Mus musculus with 26 samples.

Results

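The vacuolar proton pump (V-ATPase) and the lysosome were followed through heat, oxidative and osmotic stress in 48 genes of NIH3T3 cells, an immortalised line of mouse embryonic fibroblasts. The members were chosen by symbol from the 20430 genes of the RNA table: 26 matched the naming pattern of V-ATPase subunits and accessory proteins (Atp6v0, Atp6v1 and Atp6ap), and 22 were listed lysosomal genes. All 48 were also in the 19941 genes of the footprint table. Polyadenylated RNA was sequenced in 16 libraries and ribosome footprints, the mRNA fragments that ribosomes protect, in 10 libraries, with 2 replicates in each of 13 groups. For heat, cells were held at 44 °C for 2 h or at 42 °C for 8 h and set against a control of their own. H2O2 (oxidative stress) and KCl (osmotic stress) were each applied for 2 h or 7 h and shared a single control, so that results for H2O2 and KCl are not independent of each other. Footprint libraries with labels covered the control, H2O2 and KCl groups. The labels give no concentration of H2O2 or KCl, no genetic change in any group, and no statement that replicates came from separate cultures, so p-values measure the spread between these libraries, which may be technical. The cells are a single line. The study's title concerns transcription that runs past gene ends into neighbouring genes under stress.

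The V-ATPase is a rotary pump that spends ATP to move protons into lysosomes and related compartments. Its V1 domain lies in the cytosol and hydrolyses ATP, while its V0 domain spans the membrane and carries the protons. The acid that it makes lets hydrolases such as cathepsins and glycosidases digest proteins and sugars delivered by endocytosis and autophagy. Several subunits have alternative genes, of which some are used in most tissues and others mainly in kidney, epididymis, bone or neurons. TFEB and TFE3 are related transcription factors that move to the nucleus when the kinase complex mTORC1 is inactive, and they bind a palindromic E-box, the CLEAR motif, near the start of many lysosomal and V-ATPase genes. That control acts mainly on the location of the proteins, which RNA levels do not show.

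Promoter windows of 300 bases, from 250 before to 50 after the gene start, were found for 39 of the 48 members in RefSeq (GRCm38.p6, the assembly behind the mm10 name in the submitters' processing notes). They were searched for the core E-box CACGTG and for its 8-base extension TCACGTGA. Both are palindromes, so the strands read alike, and each TCACGTGA also contains a CACGTG. TCACGTGA was present in 7 of 39 members (17.9%), against 1.12% of 27025 genes with a window and 0.974% of 32851 windows. CACGTG was present in 13 of 39 members (33.3%), against 8.09% of genes and 7.15% of windows. The motif is known from lysosomal and V-ATPase genes, as stated above, so a higher share among the members is no new result. A match is a string in a window and says nothing about binding. Windows of 30 bases are printed for all 7 members with TCACGTGA (Ctsa and Gla hold it at 2 places each), and for Lamp1, Atp6v0b and Ctsl, which hold CACGTG only and were among the members that rose most under KCl. Each reads 5′ to 3′ along the gene, with the motif in capitals.
Ctsd (chr7:142387908-142387937, minus strand): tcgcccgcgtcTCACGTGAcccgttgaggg
Ctsa (chr2:164833749-164833778, plus strand): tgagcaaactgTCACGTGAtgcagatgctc
Ctsa (chr2:164833766-164833795, plus strand): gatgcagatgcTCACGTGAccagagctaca
Gla (chrX:134601182-134601211, minus strand): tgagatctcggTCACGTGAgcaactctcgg
Gla (chrX:134601215-134601244, minus strand): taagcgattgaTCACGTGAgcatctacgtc
Mcoln1 (chr8:3500462-3500491, plus strand): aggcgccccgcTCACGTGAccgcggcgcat
Atp6v1a (chr16:44139373-44139402, minus strand): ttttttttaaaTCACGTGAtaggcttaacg
Atp6v0d1 (chr8:105566050-105566079, minus strand): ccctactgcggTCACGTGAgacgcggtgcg
Atp6v0e (chr17:26676387-26676416, plus strand): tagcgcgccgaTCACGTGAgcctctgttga
Lamp1 (chr8:13159104-13159133, plus strand): tggtccagcgccCACGTGatgccgactggc
Atp6v0b (chr4:117887348-117887377, minus strand): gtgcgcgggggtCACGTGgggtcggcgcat
Ctsl (chr13:64370739-64370768, minus strand): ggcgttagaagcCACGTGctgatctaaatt

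Counted back from the gene start, the TCACGTGA of Ctsd began 99 bases before it, that of Mcoln1 46 bases, that of Atp6v1a 132 bases, and those of Gla 195 and 228 bases before it. In Atp6v0d1 the motif spanned the start, and in Atp6v0e it began 3 bases into the transcript. Ctsa held a copy on either side of its start. Lamp1 held 4 separate CACGTG copies, which began 61, 45, 28 and 15 bases before the start. Gaa, Glb1 and Naglu were the other members with CACGTG alone. Naglu was among the largest called falls in RNA at 7 h of KCl (log2 fold change -0.74). The windows of Lamp1, Atp6v0b and Ctsl were picked because those genes rose, so they do not represent this group. The promoters of Tfeb and Tfe3 held neither string.

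RNA libraries held about 24441900 to 45244400 expected counts and footprint libraries about 1460750 to 5168540, so a footprint difference has to be larger to be called. The 8 fibroblast markers examined, among them Col1a1, Vim and Thy1, were each above 1 TPM in the RNA, with a summed level of 9167 to 11276 TPM in the control libraries. TPM is a share of all transcripts in a library after division by transcript length. Of 7 blood cell markers, Cd14, Cd68, Csf1r and Itgam exceeded 1 TPM in some library and Adgre1 was at 0 in all, with a summed level of 16.6 to 20.6 TPM in controls and 9.95 to 104 TPM over all RNA libraries. Markers of kidney intercalated cells and of neurons, which use alternative V-ATPase subunits, summed to at most 0.44 and 0.17 TPM. The 4 osteoclast markers summed to 1.32 to 4.22 TPM over the RNA libraries, with Acp5 above 1 TPM in some library and Dcstamp at 0 in all. The 4 epithelial markers summed to 7.89 to 19.6 TPM, with Epcam, Krt8 and Krt18 above 1 TPM in some library. In bulk RNA, fewer cells of a type and less RNA per cell cannot be told apart.

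In untreated cells the members were an abundant set. Together they made up 1.1% and 1.13% of all TPM in the libraries of the heat control and 1.08% and 1.17% in those of the H2O2 and KCl control, and 38 of 48 averaged at least 10 TPM in both controls. After 7 h of KCl the share was 1.45% and 1.64%, at 44 °C 1.42% and 1.46% and at 42 °C 0.944% and 0.964%. The 42 °C libraries lay below and the 44 °C and 7 h KCl libraries above every library of their controls. Among V0 subunits, Atp6v0c, the proteolipid that forms most of the rotating ring, was measured at 898 and 859 TPM in the 2 H2O2 and KCl control libraries, and Atp6v0b, the other ring proteolipid, at 399 and 370.4 TPM. Among V1 subunits, Atp6v1a, which holds the catalytic ATP sites, was at 142 and 139 TPM and Atp6v1h, a regulatory subunit, at 73 and 71.1 TPM. Atp6ap1, an accessory protein needed for assembly, was at 309.8 and 265 TPM. Ctsd, the aspartic protease cathepsin D, was at 1032 and 943 TPM and Psap, the precursor of the saposins, at 1148 and 1082 TPM, while Naglu, which removes N-acetylglucosamine from heparan sulfate, was at 14.8 and 13.1 TPM. The regulators were lower, with Tfeb at 21.7 and 22.8 TPM and Tfe3 at 74.6 and 70.3 TPM.

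For subunits B, C, E, G, d and e, which have alternative genes, a single form carried most of the RNA, while 3 forms of subunit a were each above 40 TPM. For subunit B, Atp6v1b2 was at 95.7 and 90.7 TPM in the H2O2 and KCl control libraries and Atp6v1b1, the kidney form, at 0.02 and 0 TPM. For subunit C, Atp6v1c1 was at 141 and 136 TPM and Atp6v1c2 at 0 and 0.04 TPM. For subunit E, Atp6v1e1 was at 161 and 143 TPM and Atp6v1e2, the testis form, had 0 counts in both libraries. These pairs differed by far more than the libraries did. Subunit G was less exclusive, with Atp6v1g1 at 252 and 263 TPM, Atp6v1g2, a form best known from neurons, at 6.24 and 4.59 TPM and Atp6v1g3 with 0 counts in all 26 libraries. For the membrane subunit a, Atp6v0a1 was at 58.9 and 58 TPM, Atp6v0a2 at 47.3 and 45.3 TPM and Atp6v0a4 at 0.17 and 0.11 TPM. Tcirg1, which codes for the a3 form and does not carry the Atp6v0 name, was at 124 and 122 TPM, above the other a forms. For subunit d, Atp6v0d1 was at 168 and 152 TPM and Atp6v0d2, an osteoclast form, at 0.02 and 0 TPM. For subunit e, Atp6v0e was at 258 and 256 TPM and Atp6v0e2 at 2.09 and 2.29 TPM. Expected counts divide reads that fit several genes, so the low forms are uncertain at these levels. In the footprints, Atp6v1g2 had 0 and 0 counts in the control libraries and at most 2 counts in any library, too few to measure its translation at this depth.

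**Figure D1:**
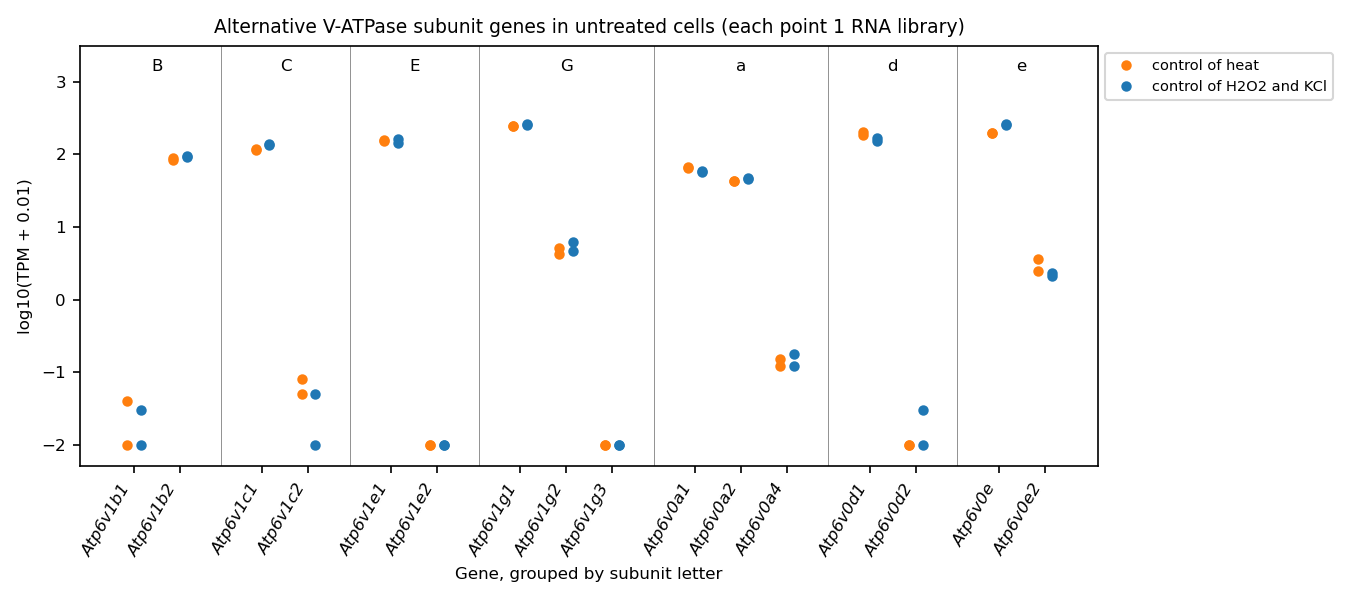
RNA level of V-ATPase subunits that have alternative genes, in untreated cells, as log10(TPM + 0.01) on the vertical axis, with genes grouped by subunit letter on the horizontal axis. Each point is 1 library, orange for the control of heat and blue for the control of H2O2 and KCl, and points at -2 stand for 0 TPM. Atp6v1b2, Atp6v1c1, Atp6v1e1, Atp6v1g1, Atp6v0d1 and Atp6v0e sit far above their alternatives, while Atp6v0a1 and Atp6v0a2 lie close together.

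Of the 48 members, 41 had enough counts to be tested in the RNA fits. Atp6v1b1, Atp6v1c2, Atp6v1e2, Atp6v1g3, Atp6v0d2, Atp6ap1l and Atp6v1fnb did not, and the last of these matches the naming pattern only as a neighbour of Atp6v1f. Calls rest on edgeR's quasi-likelihood test, with p-values adjusted over all tested genes (Benjamini-Hochberg) and a threshold of 0.05. At 44 °C for 2 h, 24 members rose and 10 fell, where 71.0% of all genes were called, 35.4% as higher and 35.7% as lower. At 42 °C for 8 h, 6 rose and 18 fell, where 63.6% of all genes were called, 31.7% as higher and 31.9% as lower. After H2O2, 11 rose and 6 fell at 2 h (53.9% of all genes called, 27.3% as higher and 26.5% as lower), and 13 rose and 8 fell at 7 h (70.5% of all genes called, 39.4% as higher and 31.1% as lower). After KCl, 19 rose and 5 fell at 2 h (54.2% of all genes called, 27.2% as higher and 27.0% as lower), and 26 rose and 8 fell at 7 h (68.8% of all genes called, 37.2% as higher and 31.6% as lower). Most genes were called in each of these comparisons, so a call alone sets no member apart.

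The members' median log2 fold change was 0.16 for the 44 °C groups and -0.02 for 42 °C. For H2O2 the medians were 0.08 (2 h) and 0.11 (7 h), for KCl 0.16 (2 h) and 0.29 (7 h). Over all tested genes the medians lay between -0.01 and 0.08. The directions depended in part on the scaling of the libraries. On a log2(TPM + 1) scale tested with limma, 42 °C gave 1 higher and 31 lower, and the median of all genes was then -0.16. The same scale gave 8 higher and 7 lower at 2 h of KCl and 8 higher and 10 lower at 7 h of H2O2. With upper quartile scaling the counts were 12 higher and 7 lower at 2 h of KCl, 20 higher and 11 lower at 7 h of KCl and 9 higher and 11 lower at 7 h of H2O2, so that at 7 h of H2O2 the balance of rises and falls turned with both scalings. For 44 °C and for 2 h of H2O2 the share of rises moved by less than 10 percentage points under DESeq2, upper quartile and TPM scaling. Leaving out control replicate 2 or H2O2 replicate 1, however, turned the balance at 2 h of H2O2 towards falls.

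**Figure D2:**
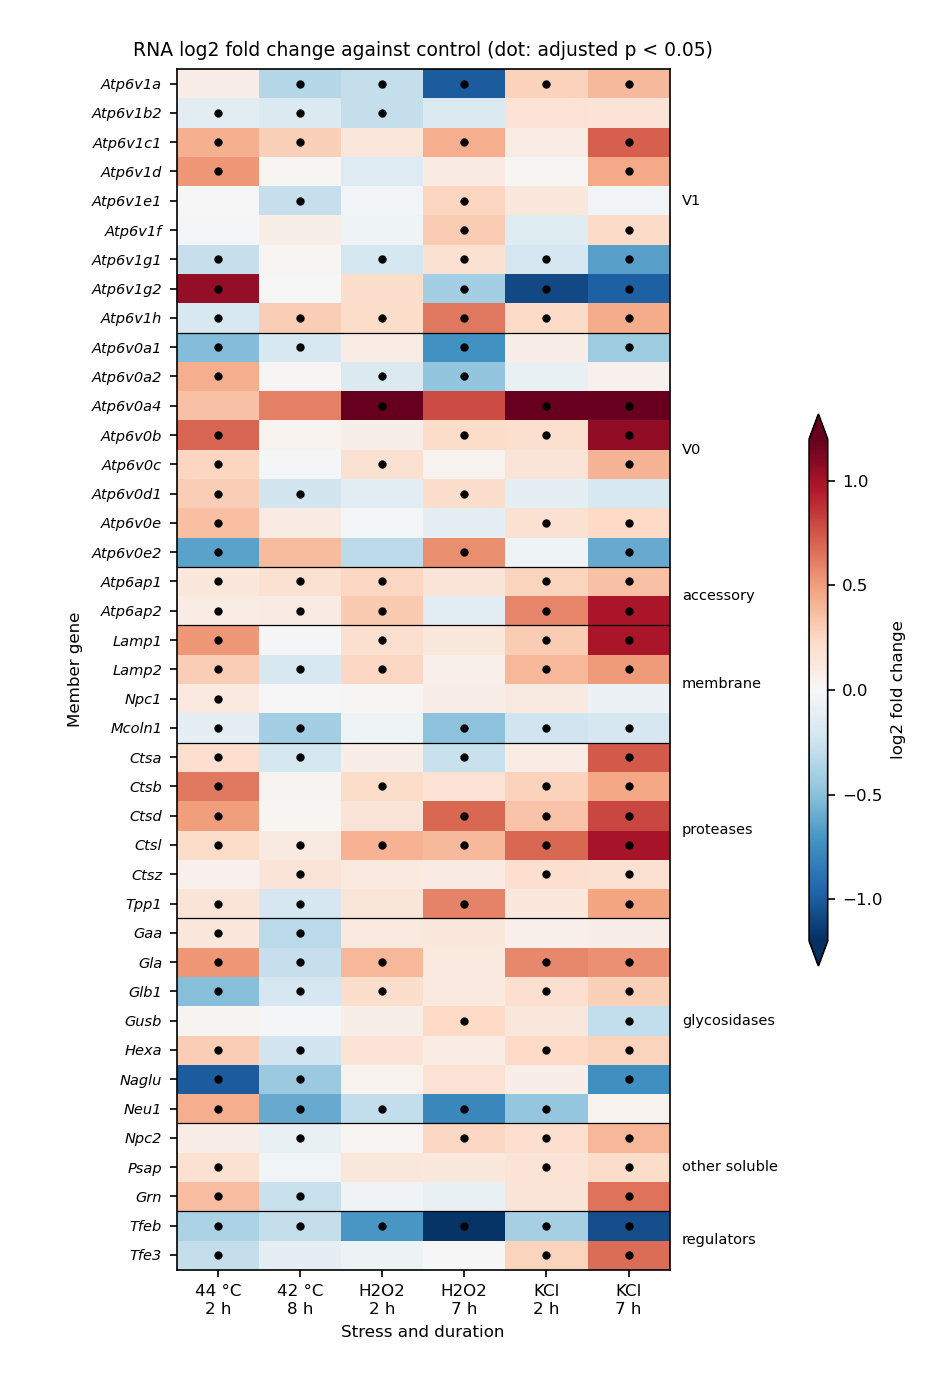
RNA log2 fold change against the matching control for the 41 tested members (rows, grouped by role) under 6 stress conditions (columns), with colour from blue (lower) to red (higher) that saturates at 1.2 in either direction and a dot where the adjusted p was under 0.05. The 44 °C and 7 h KCl columns hold 24 and 26 called rises, and the Tfeb row is lower in all 6 columns.

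At 44 °C for 2 h, called rises outnumbered called falls among the listed lysosomal hydrolases and membrane proteins. Over all genes 35.4% were called higher and 35.7% lower. A wider lysosomal list, given below, did not share this excess, with 18 rises and 21 falls. Of 6 proteases 5 rose and 0 fell, of 4 lysosomal membrane proteins 3 rose and 1 fell, and of 7 glycosidases 4 rose and 2 fell. Values after ± are standard errors of the fit (2 libraries per group). Levels between libraries are given as CPM, counts as a share of the library after TMM scaling. Ctsb, the cysteine protease cathepsin B, was at 994 and 1013 CPM in the control libraries and 1545 and 1558 CPM at 44 °C, a log2 fold change of 0.63 ± 0.0386 (SE, adjusted p = 4.23e-09) by edgeR. Lamp1, the main glycoprotein of the lysosomal membrane, went from 1225 and 1246 to 1765 and 1772 CPM, a log2 fold change of 0.52 ± 0.0385. Lamp2, which also serves as a receptor in chaperone-mediated autophagy, went from 647 and 619 to 812 and 745 CPM (0.30 ± 0.0456). The libraries of the control and the heated cells did not overlap for these 3 genes. The share of all genes without such overlap was not computed, here or below, so a lack of overlap adds nothing to a call. Ctsd rose from 759.8 and 778 to 1066 and 1105 CPM (0.50 ± 0.0397). Gla, the alpha-galactosidase that is lost in Fabry disease (0.52 ± 0.0508), and Grn, which codes for progranulin (0.37 ± 0.0419), also rose. Naglu was the largest fall, from 24.8 and 25.4 to 12.4 and 12.7 CPM, a log2 fold change of -1.0 ± 0.0661 (SE, adjusted p = 8.8e-09). Glb1, the lysosomal beta-galactosidase, fell from 64.4 and 66.9 to 46.1 and 45.9 CPM (-0.51 ± 0.0474). The other called glycosidases rose. The libraries of Naglu and Glb1 did not overlap with the control.

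At 44 °C, of 8 tested V0 genes 5 rose and 2 fell, while of 9 tested V1 genes 3 rose and 3 fell. Over all genes 35.4% rose and 35.7% fell. Atp6v0b rose from 108 and 108 to 172 and 179 CPM, a log2 fold change of 0.70 ± 0.0457 (SE, adjusted p = 7.89e-09) by edgeR and the largest rise among members whose average log2 CPM reached 3. Atp6v1d, a subunit of the central rotor, rose from 69 and 70.4 to 102 and 98.4 CPM (0.52 ± 0.0427). Of the alternative a subunits, Atp6v0a1 fell from 110.0 and 109 to 75.2 and 77 CPM (-0.52 ± 0.0413) and Atp6v0a2 rose from 105 and 105 to 143 and 141 CPM (0.43 ± 0.0404), so that the order of these paralogues by CPM was reversed in the heated cells. Tcirg1 rose by 0.36 ± 0.0408. Among the stalk subunits, Atp6v1g1 fell (-0.28 ± 0.0444) while its low-level alternative Atp6v1g2 rose from 3.28 and 2.77 to 5.54 and 7.1 CPM (1.05 ± 0.171). Atp6v1e1 (-0.01 ± 0.0442) and Atp6v1f (-0.02 ± 0.0467) did not pass the test. The summed fibroblast marker level was 11088 and 11276 TPM in the control, 8042 and 7796 TPM at 44 °C and 9242 and 9580 TPM at 42 °C, and its part in the heat results was not tested. Of the 34 members called at 44 °C, 27 kept their call under every alternative and with each library left out. Those that did not included Atp6ap1, Atp6ap2 and Mcoln1, whose changes were at most 0.12 in size.

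At 42 °C for 8 h, 6 of 7 glycosidases fell and 0 rose, where 31.9% of all genes were called lower and 31.7% higher. Log2 fold changes ranged from -0.60 to 0.15 over the 22 listed lysosomal genes, of which 13 fell and 2 rose, with a median of -0.20. Neu1, the lysosomal sialidase, was at 43.3 and 46.3 CPM in the control and 28.2 and 30.8 CPM at 42 °C, a log2 fold change of -0.60 ± 0.0602 (SE, adjusted p = 9.15e-07) by edgeR. Mcoln1, the calcium channel mucolipin 1, went from 68 and 69.7 to 51.5 and 52.2 CPM (-0.41 ± 0.0456), and Naglu from 24.8 and 25.4 to 18.8 and 18 CPM (-0.45 ± 0.0638). Control and heated libraries did not overlap for any of the 3. Lamp1 was at 1230 and 1211 CPM (-0.02 ± 0.0384), Ctsb at 1018 and 1036 CPM (0.03 ± 0.0385) and Ctsd at 773 and 789 CPM (0.02 ± 0.0397), and these did not pass the test. Lamp2 fell to 552 and 554 CPM (-0.20 ± 0.0458). Ctsl was at 424 and 435 CPM in the control, 504 and 498 CPM at 44 °C (0.22 ± 0.0377) and 466 and 463 CPM at 42 °C (0.11 ± 0.0378). The largest called rises were those of Atp6v1h, from 61 and 61.5 to 77.3 and 73.1 CPM (0.30 ± 0.0475), Atp6v1c1, which links the V1 stalks, from 108 and 108 to 133 and 129.9 CPM (0.29 ± 0.0406), and Atp6ap1, from 264 and 275 to 316 and 296 CPM (0.18 ± 0.0431). On the TPM scale Atp6v1h lost its call and Atp6ap1, Atp6ap2, Ctsl and Ctsz had negative signs. Atp6v1a fell from 262 and 259 to 203 and 209 CPM (-0.34 ± 0.0406).

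The heat conditions were also compared directly. At 42 °C for 8 h against 44 °C for 2 h, 26 members were lower and 8 higher, where 75.1% of all genes were called, 37.9% as higher and 37.2% as lower. The TPM scale gave 4 higher and 33 lower, where the median of all genes was -0.20. Temperature and duration both differ between these groups and cannot be told apart. Among members whose average log2 CPM reached 3, Neu1 had the largest difference, from 60.8 and 60.6 CPM at 44 °C to 28.2 and 30.8 CPM at 42 °C, a log2 difference of -1.04 ± 0.0595 (SE, adjusted p = 1.22e-09) by edgeR. Gla (-0.80 ± 0.0528), Atp6v0b (-0.65 ± 0.0462) and Grn (-0.64 ± 0.0422) followed. Naglu (0.55 ± 0.07) and Atp6v1h (0.49 ± 0.0484) were higher at 42 °C. All 7 members whose promoter window holds TCACGTGA, whose sequences are printed above, were lower at 42 °C than at 44 °C, with a median of -0.42. Of the 6 tested members with CACGTG alone 4 were lower and 2 higher (median -0.28), and of the 21 with neither string 11 were lower and 4 higher (median -0.17). Against control, 5 of the 7 rose and 1 fell at 44 °C, and 0 rose and 5 fell at 42 °C. After H2O2 the 7 did not move together, with 1 higher and 1 lower at 2 h and 2 higher and 3 lower at 7 h. Their H2O2 medians were -0.01 and -0.11, against 0.09 and 0.10 for members with neither string. At 7 h of KCl the medians were 0.39 for TCACGTGA, 0.63 for CACGTG alone and 0.27 for neither. The difference between these motif groups was not tested.

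**Figure D3:**
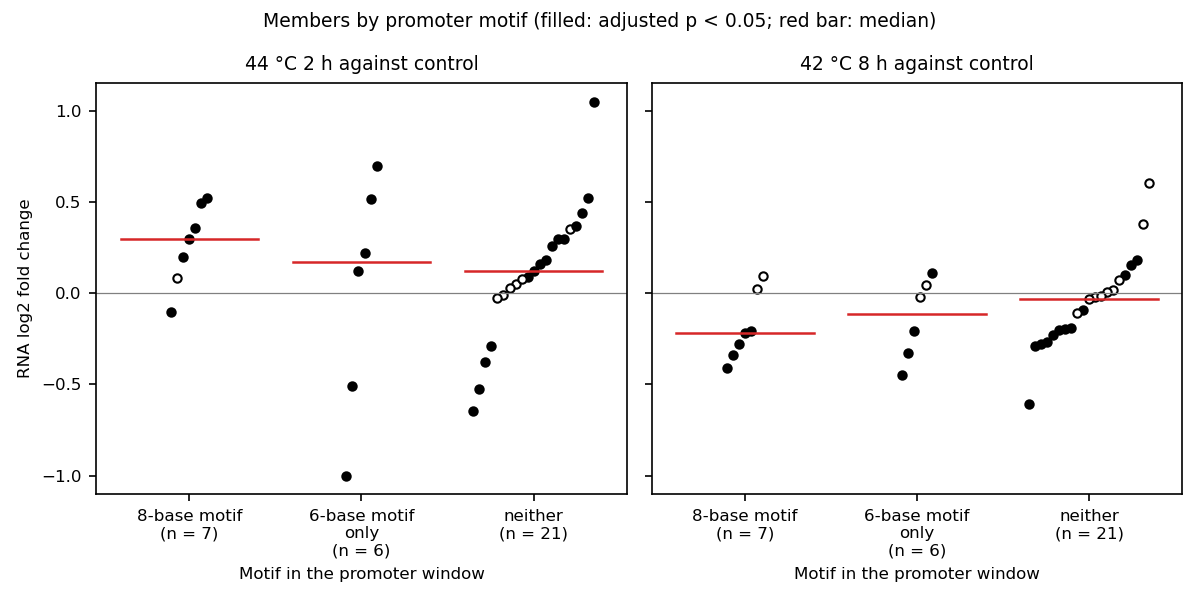
RNA log2 fold change (vertical axis) of tested members with a RefSeq promoter window, at 44 °C for 2 h (left) and 42 °C for 8 h (right) against control, split on the horizontal axis by whether the window holds the 8-base motif, the 6-base motif alone or neither. Each point is a gene, filled where the adjusted p was under 0.05, and red bars are medians. The median of the 7 genes with the 8-base motif is 0.30 at 44 °C and -0.22 at 42 °C, and the groups overlap in both panels.

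After 2 h of H2O2 the called members whose average log2 CPM reached 3 changed by at most 0.70 in size, and after 7 h by at most 1.18. At 2 h, Ctsl, the cysteine protease cathepsin L, rose from 460.0 and 413 to 603 and 565 CPM, a log2 fold change of 0.42 ± 0.0718 (SE, adjusted p = 0.000226) by edgeR, Gla from 59.5 and 50.6 to 75.8 and 69.7 CPM (0.40 ± 0.0925), and Atp6ap2, the prorenin receptor and V-ATPase accessory protein, from 252 and 216 to 291 and 293 CPM (0.32 ± 0.0881). Atp6v1a fell from 260.2 and 252 to 209 and 211 CPM (-0.29 ± 0.076) and Neu1 from 47.8 and 41.2 to 37.1 and 35.6 CPM (-0.29 ± 0.099). The 2 h and control libraries did not overlap for these 5 genes. Lamp1 at 1496 and 1402 CPM (0.19 ± 0.07), Lamp2 at 607 and 604 CPM (0.25 ± 0.077) and Ctsb at 1195 and 1149 CPM against 1070 and 945 CPM in the control (0.22 ± 0.0739) were called higher. Ctsd was at 985 and 912 CPM (0.16 ± 0.0787) and did not pass the test at 2 h. Just 4 of the 17 calls at 2 h held in every alternative, those of Atp6v1a, Ctsl, Tfeb and Atp6v0a4. Without control replicate 2, or without H2O2 replicate 1, called falls outnumbered called rises, so the excess of rises at 2 h rested on single libraries. At 7 h, Ctsd was at 1366 and 1372 CPM against 893 and 808 CPM in the control (0.69 ± 0.079, adjusted p = 2.42e-06). Tpp1, the tripeptidyl peptidase, was at 292 and 284 CPM against 201 and 179 CPM (0.60 ± 0.0675), and Atp6v1h at 103 and 106 CPM against 68.5 and 66.3 CPM (0.63 ± 0.0633). The libraries of these genes did not overlap between the groups. Ctsl was at 565 and 580.4 CPM and rose (0.39 ± 0.0719). Lamp1 at 1390 and 1384 CPM (0.13 ± 0.07), Lamp2 at 516 and 547 CPM (0.06 ± 0.0771) and Ctsb at 1140 and 1131 CPM (0.17 ± 0.074) did not pass the test at 7 h. Of the 21 calls at 7 h, 11 held in every alternative. The summed level of the 8 fibroblast markers was 4147 and 4159 TPM in the 7 h libraries against 9167 and 9240 TPM in the control, and that of the 7 blood cell markers 101 and 104 TPM against 20.6 and 18.4 TPM. Among the latter, Cd68, a lysosomal membrane protein of macrophages, was at 9.98 and 9.59 TPM in the control and 44.7 and 42.6 TPM at 7 h. The part of these markers in the H2O2 results was not tested.

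V-ATPase subunits did not share a direction at 7 h of H2O2. Atp6v1a fell from 260.2 and 252 to 128 and 129 CPM, a log2 fold change of -1.0 ± 0.0774 (SE, adjusted p = 3.59e-08) by edgeR, and Atp6v0a1 from 96.3 and 91.5 to 55.8 and 57.5 CPM (-0.73 ± 0.06). Atp6v0a2 fell as well (-0.47 ± 0.0598). Subunits of the same V1 domain rose, among them Atp6v1c1 (0.43 ± 0.0714), Atp6v1f (0.31 ± 0.0782) and Atp6v1e1 (0.26 ± 0.0716). Of 9 tested V1 genes 5 rose and 2 fell, where 39.4% of all genes rose and 31.1% fell. The calls of Atp6v1f and Atp6v1e1 were lost in some alternatives. Tcirg1, the a3 form, went the other way from Atp6v0a1 and Atp6v0a2, from 152 and 148 CPM in the control to 404 and 406 CPM (1.44 ± 0.0691, adjusted p = 1.96e-10). The enzymes of the sialidase complex, in which Ctsa (protective protein cathepsin A) stabilises Neu1 and Glb1, had different calls. Neu1 fell from 47.8 and 41.2 to 26.6 and 25.4 CPM (-0.78 ± 0.102), Ctsa fell (-0.27 ± 0.0934, lost without control replicate 1 or H2O2 replicate 2) and Glb1 did not pass the test (0.11 ± 0.0741). Mcoln1 fell from 60.4 and 59.8 to 44.2 and 40.9 CPM (-0.50 ± 0.0676). From 2 h to 7 h, 12 members rose and 12 fell (73.4% of all genes called, 37.3% as higher and 36.1% as lower), with 9 higher and 14 lower on the TPM scale. Atp6v0a1 (-0.82 ± 0.0604) and Atp6v1a (-0.71 ± 0.0774) fell between these times, and Ctsd (0.53 ± 0.0789) and Tpp1 (0.45 ± 0.0676) rose.

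After KCl, called rises outnumbered falls at both times. At 2 h, Ctsl rose from 460.0 and 413 to 673 and 732 CPM (0.69 ± 0.072, adjusted p = 2.25e-06 by edgeR), Atp6ap2 from 252 and 216 to 321 and 381 CPM (0.58 ± 0.0884) and Gla from 59.5 and 50.6 to 82.2 and 81.8 CPM (0.57 ± 0.0931). Neu1 fell to 34.5 and 29.99 CPM (-0.47 ± 0.102) and Mcoln1 from 60.4 and 59.8 to 51 and 51.1 CPM (-0.23 ± 0.0675). Lamp1 rose to 1551 and 1574 CPM (0.30 ± 0.0701), Lamp2 to 634 and 711 CPM (0.40 ± 0.0771), Ctsd to 1109 and 1044 CPM (0.34 ± 0.0788) and Ctsb to 1238 and 1204 CPM (0.28 ± 0.074). Of the 24 calls 12 held in every alternative, and without control replicate 2 the count of calls was 13. At 7 h all 6 proteases rose, where 37.2% of all genes were called higher. Ctsl was at 826 and 904 CPM (0.99 ± 0.0723), Ctsd at 1360 and 1597 CPM (0.80 ± 0.0791), and Ctsa went from 461 and 400.4 to 651 and 779 CPM (0.73 ± 0.0935). Ctsb was at 1293 and 1479 CPM (0.46 ± 0.0741). Ctsz (0.19 ± 0.0664) was the smallest of them and lost its call in some alternatives. Lamp1 rose from 1347 and 1189 to 2390 and 2612 CPM (0.98 ± 0.0706, adjusted p = 2.77e-08) and Lamp2 from 538 and 483 to 684 and 768 CPM (0.51 ± 0.0772). The 7 h libraries lay above both controls for Ctsl, Ctsd, Ctsa, Lamp1 and Lamp2. The falls at 7 h included Naglu, from 16.4 and 14.3 to 8.65 and 9.93 CPM (-0.74 ± 0.0979), and Gusb, the beta-glucuronidase (-0.30 ± 0.0624). The fibroblast markers summed to 8251 and 9076 TPM and the blood cell markers to 36.2 and 36.5 TPM in the 7 h libraries, and their part in the KCl results was not tested. Of 34 calls at 7 h, 26 held in every alternative.

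Among V-ATPase genes whose average log2 CPM reached 3, Atp6v0b had the largest rise at 7 h of KCl, from 167 and 153 to 306 and 363 CPM (1.06 ± 0.0772, adjusted p = 3e-08 by edgeR). Atp6ap2 reached 438 and 485 CPM (0.98 ± 0.0886) and Atp6v1c1 195 and 227 CPM (0.72 ± 0.0715). Atp6v0c (0.41 ± 0.0655), Atp6v1d (0.46 ± 0.0739) and Atp6v1a (0.39 ± 0.0759) also rose. Atp6v1g1 fell from 117 and 121 to 75.8 and 75.7 CPM (-0.65 ± 0.058), its alternative Atp6v1g2 fell from 3.85 and 2.96 to 1.79 and 1.68 CPM (-0.98 ± 0.175), and Atp6v0a1 fell (-0.42 ± 0.0597) while Atp6v0a2 did not pass the test (0.05 ± 0.0592). Of 25 subunit and accessory genes, 19 were tested, of which 11 rose and 4 fell, where 37.2% of all genes rose and 31.6% fell. Atp6v0a4, the kidney form of subunit a, had the largest log2 fold change, 2.34 ± 0.371, and rose at 2 h of KCl (1.79 ± 0.404) and of H2O2 (1.86 ± 0.379). It stayed at a trace level, with 12 and 6 counts in the control libraries and 31 and 23 counts, or 0.69 and 0.65 TPM, at 7 h of KCl. From 2 h to 7 h of KCl, 17 members rose and 6 fell (68.8% of all genes called, 35.1% as higher and 33.7% as lower), with 14 higher and 8 lower under upper quartile scaling. Atp6v0b (0.87 ± 0.0775) and Lamp1 (0.68 ± 0.0703) rose in that interval, and Naglu (-0.81 ± 0.102) fell.

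**Figure D4:**
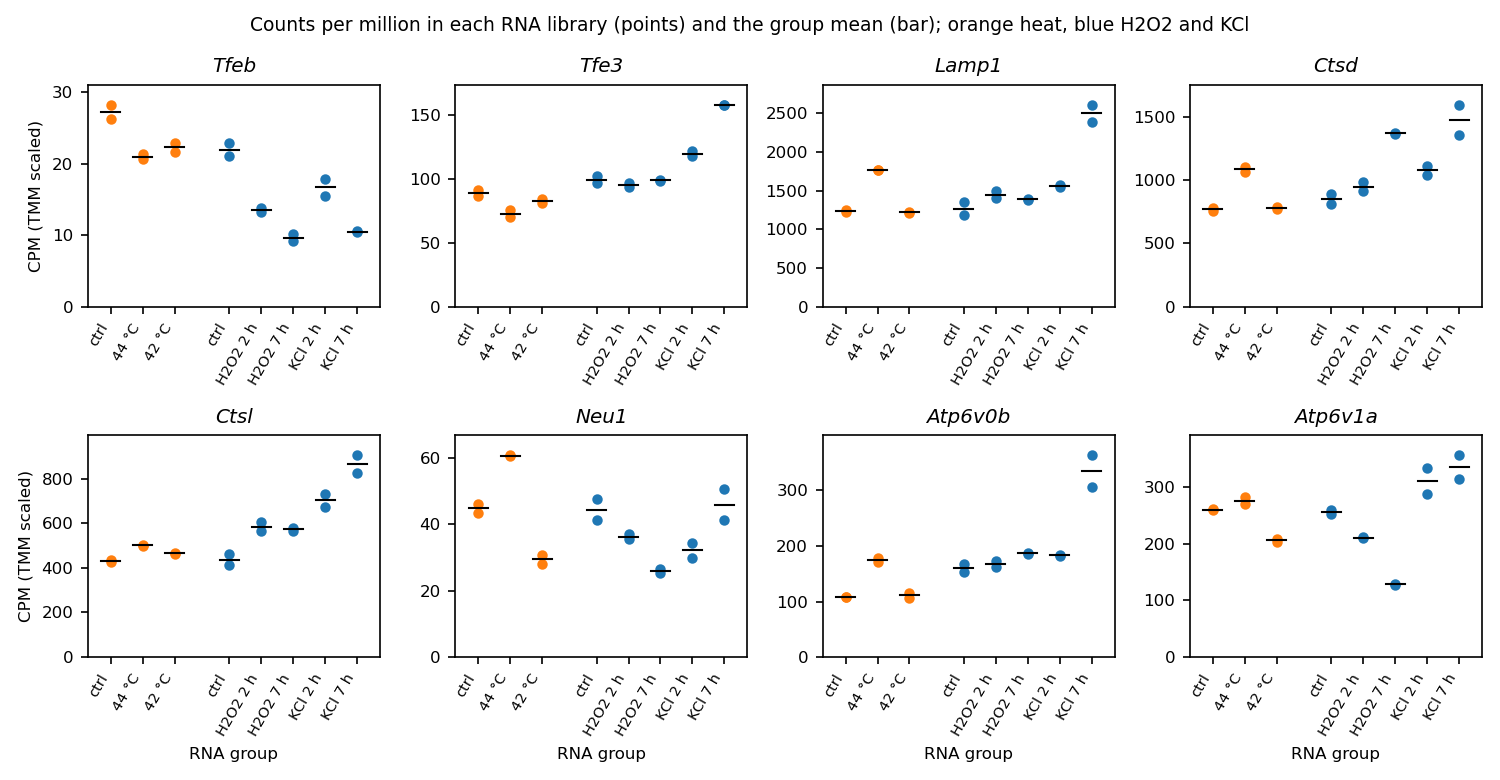
RNA level in CPM (vertical axes, from 0) of 8 members in every RNA library (points), with the mean of each group as a bar; orange groups belong to the heat experiment and blue groups to the H2O2 and KCl experiment, which were scaled separately. Tfeb is lower than its control in all 6 stress groups, Lamp1 and Atp6v0b are highest at 7 h of KCl, and Atp6v1a falls after H2O2 and not after KCl.

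H2O2 and KCl were compared directly at matched times. At 2 h, 2 members were higher and 7 lower under H2O2 than under KCl (51.3% of all genes called, 27.0% as higher and 24.2% as lower), and at 7 h 8 were higher and 24 lower (78.4% of all genes called, 41.0% as higher and 37.4% as lower). At 2 h the split was 1 higher and 10 lower with DESeq2 and 2 higher and 3 lower on the TPM scale, and 4 members were called without H2O2 replicate 2. The catalytic subunit differed most at 7 h among members whose average log2 CPM reached 3. Atp6v1a was at 128 and 129 CPM under H2O2 and 314 and 356 CPM under KCl, a log2 difference of -1.39 ± 0.0781 (SE, adjusted p = 7.07e-10) by edgeR. It already differed at 2 h (-0.57 ± 0.0764), with 209 and 211 CPM under H2O2 and 288 and 334 CPM under KCl, and the libraries did not overlap at either time. Atp6ap2 (-1.11 ± 0.0893), Ctsa (-1.0 ± 0.0942), Lamp1 (-0.85 ± 0.0705), Atp6v0b (-0.84 ± 0.0772) and Neu1 (-0.82 ± 0.105) were lower under H2O2 at 7 h. Naglu (0.91 ± 0.0998), Atp6v1g1 (0.83 ± 0.0584) and Gusb (0.53 ± 0.0628) were higher. Ctsd did not pass the test between the stresses (-0.11 ± 0.0786, adjusted p = 0.209), nor did Tpp1 (0.12 ± 0.0675) or Tfeb (-0.12 ± 0.104).

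The transcription factor Tfeb fell in all 6 comparisons with control, under edgeR and in each alternative run. In the heat experiment it was at 26.2 and 28.2 CPM in the control, 20.6 and 21.3 CPM at 44 °C (-0.38 ± 0.065) and 21.7 and 22.9 CPM at 42 °C (-0.29 ± 0.0655). In the other experiment it was at 21 and 22.9 CPM in the control, 13.8 and 13.2 CPM at 2 h of H2O2 (-0.70 ± 0.0886) and 10.1 and 9.18 CPM at 7 h (-1.18 ± 0.0933, adjusted p = 4.52e-08 by edgeR). Under KCl it was at 17.9 and 15.5 CPM at 2 h (-0.39 ± 0.0892) and 10.5 and 10.4 CPM at 7 h (-1.06 ± 0.0941). No stressed library reached the level of its controls. Tfe3, its relative, was called lower at 44 °C and higher under KCl. Tfe3 was at 102 and 96.4 CPM in the H2O2 and KCl control, 98.4 and 99.2 CPM at 7 h of H2O2 (-0.01 ± 0.0559, not called), 93.8 and 96.2 CPM at 2 h of H2O2 (-0.06 ± 0.0557, not called), 117 and 122 CPM at 2 h of KCl (0.27 ± 0.0559) and 158 and 157 CPM at 7 h of KCl (0.67 ± 0.0556, adjusted p = 1.15e-07). At 44 °C it fell from 86.1 and 91 to 70.1 and 75.1 CPM (-0.29 ± 0.0488), and at 42 °C it was at 80.8 and 83.8 CPM (-0.11 ± 0.0488, not called). Mcoln1, whose channel releases lysosomal calcium and whose window holds TCACGTGA, was called lower in 5 of the 6 comparisons, with 64.7 and 63.5 CPM at 44 °C (-0.10 ± 0.0443) and 49.7 and 55 CPM at 7 h of KCl (-0.20 ± 0.0673). The exception was 2 h of H2O2, with 59.5 and 56.5 CPM (-0.05 ± 0.0661), and the call at 44 °C was lost without any 1 of its 4 libraries and under DESeq2, upper quartile scaling, the TPM scale and a fit of the compared groups alone, and that at 7 h of KCl without control replicate 1 or KCl replicate 1. Npc1, the membrane cholesterol exporter, was called in 1 of the 6 comparisons, as higher at 44 °C (0.12 ± 0.0427), and lost that call with no filter on low counts and without control replicate 1, control replicate 2 or 44 °C replicate 1. Npc2, its soluble partner, rose at 7 h of KCl (0.40 ± 0.0723), a call that held in every alternative. Its rises at 7 h of H2O2 (0.25 ± 0.0722) and 2 h of KCl (0.20 ± 0.0723) and its fall at 42 °C (-0.09 ± 0.0383) were lost in some.

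In ribosome footprints 38 members were tested, Atp6v1g2, Atp6v0a4 and Atp6v0e2 being too low. At 2 h of H2O2 1 member rose and 0 fell (1.91% of all genes called, 1.14% as higher and 0.768% as lower), and 35 of 38 had a log2 fold change above 0, with a median of 0.39 against 0.00 over all genes. At 7 h of H2O2, 7 rose and 1 fell (27.7% of all genes called, 17.2% as higher and 10.6% as lower). At 2 h of KCl 0 were called by edgeR (6.86% of all genes called, 1.79% as higher and 5.06% as lower), 0 with an unadjusted p under 0.05 and 0 by DESeq2, and at 7 h of KCl 12 rose and 2 fell (20.4% of all genes called, 10.5% as higher and 9.83% as lower). The TPM scale gave 7 higher and 0 lower at 7 h of H2O2, where the median of all genes was 0.11. With upper quartile scaling the 7 h split was 4 higher and 2 lower under H2O2 and 8 higher and 3 lower under KCl. Ctsd footprints were at 1141 and 858 CPM in the control, 2670 and 2260 CPM at 7 h of H2O2 (1.30 ± 0.283, adjusted p = 0.00397 by edgeR) and 2813 and 1827 CPM at 7 h of KCl (1.21 ± 0.283). Ctsl footprints went from 697 and 522 to 1779 and 1257 CPM at 7 h of KCl (1.32 ± 0.275) and Lamp1 footprints from 1328 and 1033 to 2884 and 2038 CPM (1.06 ± 0.292). Tpp1 footprints rose from 226 and 185 to 407 and 376 CPM at 7 h of H2O2 (0.93 ± 0.227), and those of Atp6v1g1 fell from 61.4 and 53 to 39.8 and 31.2 CPM at 7 h of KCl (-0.69 ± 0.212). Tfeb footprints fell from 23.5 and 18.4 CPM to 9.4 and 6.05 CPM at 7 h of H2O2 (-1.44 ± 0.42) and 5.26 and 10.2 CPM at 7 h of KCl (-1.40 ± 0.425), with few reads behind them (14 and 36 counts at 7 h of KCl). The 7 h libraries named here did not overlap with the control. At 7 h of KCl the footprints of Lamp1, Ctsd, Ctsl and Grn were all higher in replicate 1 than in replicate 2. In the control, too, those of Lamp1, Ctsd and Ctsl were higher in replicate 1. Without control replicate 2, 1 member was called at 7 h of KCl in place of 14, without KCl replicate 1 it was 3, without control replicate 1 it was 6 and without KCl replicate 2 it was 8. At 7 h of H2O2 the 8 calls became 3 without either control library and 2 without either H2O2 library. Ctsd at 7 h of H2O2 and Atp6ap2 at 7 h of KCl (1.16 ± 0.222) were the footprint calls that held in every alternative and with each library left out.

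Footprint changes from 2 h to 7 h were called for 4 rises and 1 fall under H2O2 (29.8% of all genes called, 18.7% as higher and 11.1% as lower) and for 7 rises and 2 falls under KCl (20.6% of all genes called, 12.1% as higher and 8.43% as lower). Atp6v1a fell under H2O2 (-0.75 ± 0.216), with 335 and 267 CPM at 2 h and 167 and 190.1 CPM at 7 h, while Ctsd rose from 1026 and 1690 to 2670 and 2260 CPM (0.86 ± 0.281) and Atp6v1c1 from 75.4 and 115 to 165 and 174 CPM (0.81 ± 0.202). Under KCl, Lamp1 rose from 1237 and 836 to 2884 and 2038 CPM (1.25 ± 0.293) and Atp6v0b from 77.2 and 102 to 216 and 149 CPM (1.03 ± 0.222). Naglu fell from 34.6 and 25 to 18 and 15.9 CPM (-0.82 ± 0.26) and Atp6v1g1 from 56.4 and 64.7 to 39.8 and 31.2 CPM (-0.77 ± 0.213). The 2 h and 7 h libraries did not overlap for these 7 genes, which were picked for the size of their called changes. The H2O2 split was 3 higher and 4 lower with upper quartile scaling and 4 higher and 2 lower with DESeq2. On the TPM scale it was 4 higher and 0 lower, where the median of all genes was 0.19. The KCl split was 4 higher and 2 lower with upper quartile scaling and 9 higher and 1 lower with DESeq2. Leaving out H2O2 2 h replicate 1 or H2O2 7 h replicate 1 reduced the H2O2 calls to 1 and leaving out H2O2 7 h replicate 2 to 0, while leaving out KCl 2 h replicate 2 or KCl 7 h replicate 1 reduced the KCl calls to 1 and KCl 2 h replicate 1 to 3.

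**Figure D5:**
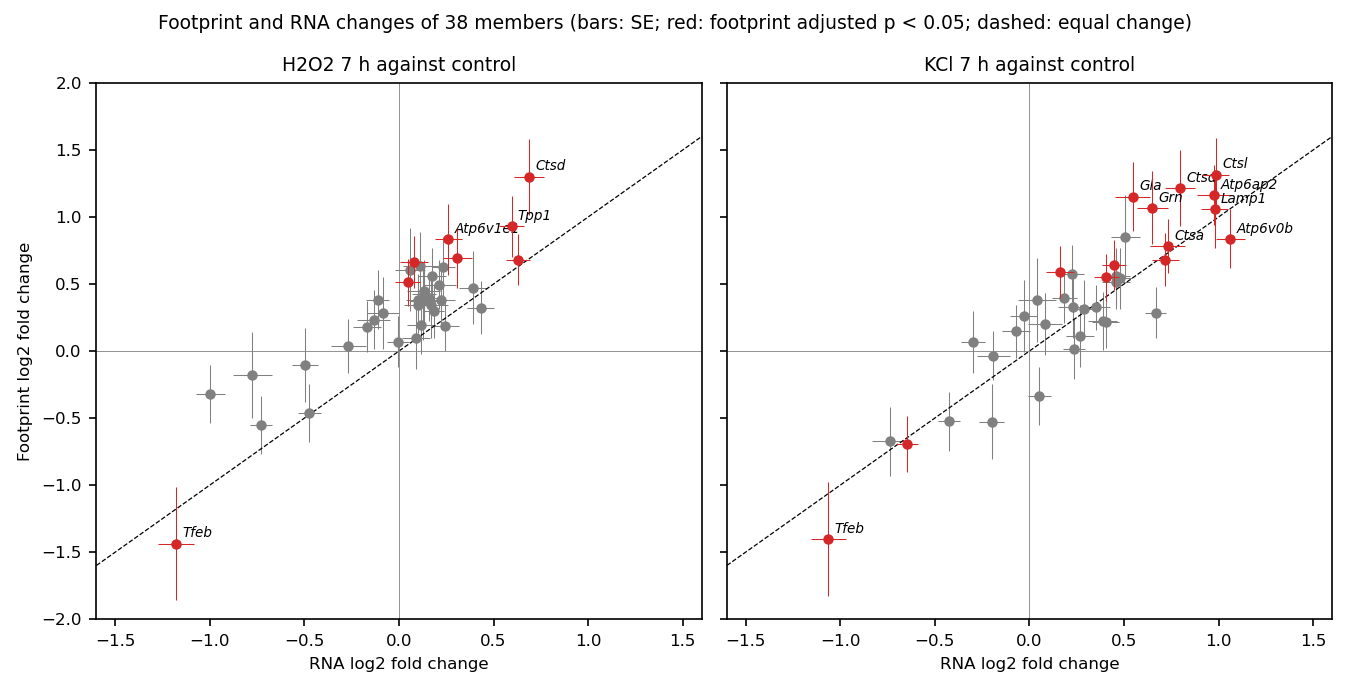
Footprint log2 fold change (vertical axis) against RNA log2 fold change (horizontal axis) of the 38 members tested in both, at 7 h of H2O2 (left) and 7 h of KCl (right) against the shared control. Bars are standard errors, red points are footprint calls at an adjusted p under 0.05 (named where the change is at least 0.7 in size) and the dashed line marks equal change. Tfeb is lowest in both panels on both axes, and Ctsd lies at 1.30 in footprints and 0.69 in RNA at 7 h of H2O2.

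Translational efficiency, the change of footprints relative to RNA, was tested as an interaction over the 20 libraries. Atp6v0c was the member called, as higher at 2 h of H2O2 (0.76 ± 0.167, adjusted p = 0.00767 by edgeR), where 11.4% of all genes were called, 3.98% as higher and 7.46% as lower. Its footprints went from 478 and 519 to 1047 and 926 CPM (0.99 ± 0.177) while its RNA went from 439.7 and 417 to 472 and 501 CPM (0.18 ± 0.0653). The efficiency call held in every alternative that was run for efficiency. DESeq2, upper quartile scaling and a fit of the compared groups alone were not run for it. The TPM scale gave 1 higher and 1 lower. The footprint call was lost without FP control replicate 1, control replicate 2 or H2O2 replicate 1. At 7 h of H2O2, 0 members were called by edgeR (9.27% of all genes called, 4.69% as higher and 4.57% as lower), 5 with an unadjusted p under 0.05, and 0 by limma voom. At 2 h of KCl 0 were called by both tools (12.8% of all genes called, 3.58% as higher and 9.18% as lower), with 1 at an unadjusted p under 0.05, and at 7 h of KCl 0 by both (5.57% of all genes called, 1.69% as higher and 3.88% as lower), with 2 at an unadjusted p under 0.05. The shares of all genes at an unadjusted p under 0.05 were not computed. Without FP control replicate 2, 2 members were called at 7 h of H2O2, and without FP KCl replicate 1, 1 at 7 h of KCl. The differences were small and mostly above 0 under H2O2. At 2 h 34 of 38 were above 0, with a median of 0.27, and at 7 h 35 of 38, with a median of 0.30, where all genes had medians of -0.01 and 0.06. On the TPM scale they were 28 and 37 of 38. The members' medians were then 0.24 and 0.47, and those of all genes -0.03 and 0.22. These comparisons share the control libraries. Atp6v1a, whose RNA fell at 7 h of H2O2, had an efficiency difference of 0.68 ± 0.226 (adjusted p = 0.0691), with footprints at 189 and 257 CPM in the control and 167 and 190.1 CPM at 7 h, where the groups overlapped.

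A wider list of 64 lysosomal, autophagy and mTORC1 pathway genes, chosen by function and holding none of the members, had 62 genes tested in RNA. At 44 °C 18 rose and 21 fell, 29% and 33.9% of those tested against 35.4% and 35.7% of all genes (median -0.05). At 42 °C 9 rose and 34 fell, 14.5% and 54.8% of those tested against 31.7% and 31.9% of all genes (median -0.18). After 2 h of H2O2, 14 rose and 13 fell, 22.6% and 21% of those tested against 27.3% and 26.5% of all genes (median 0.07), and after 7 h 16 rose and 29 fell, 25.8% and 46.8% of those tested against 39.4% and 31.1% of all genes (median -0.20). After 2 h of KCl, 27 rose and 8 fell, 43.5% and 12.9% of those tested against 27.2% and 27.0% of all genes (median 0.15), and after 7 h 32 rose and 13 fell, 51.6% and 21% of those tested against 37.2% and 31.6% of all genes (median 0.30). The counts at 44 °C and at 2 h of H2O2 were within 7 percentage points of those over all genes in each direction. The genes with the largest called changes are named here for each stress. At 44 °C Rragd (1.75 ± 0.112), a Rag GTPase that recruits mTORC1 to lysosomes, and Map1lc3b (0.86 ± 0.0437), the autophagosome protein LC3B, rose, while Wipi1 (-1.03 ± 0.0743), which binds early autophagosomal membranes, and Manba (-0.64 ± 0.0616), the beta-mannosidase, fell. At 42 °C Vps18, a core subunit of the HOPS and CORVET tethering complexes, fell from 66.9 and 67.8 to 26.1 and 27.8 CPM (-1.32 ± 0.0508, adjusted p = 6.8e-11 by edgeR). Ctso (-1.03 ± 0.0984) fell as well, and Ctsk (1.83 ± 0.205), a collagen-cleaving cathepsin, and Rragc (0.50 ± 0.0394) rose. Ctsk was low throughout, at 1.1 and 1.27 CPM in this control and 0.331 and 0.603 CPM in the other. At 2 h of H2O2 Ctsk (1.51 ± 0.273) and Sqstm1 (0.97 ± 0.0815), the autophagy receptor p62, rose, and Slc36a1 (-0.52 ± 0.0759) and Flcn (-0.48 ± 0.0705) fell. At 7 h Ctsf, a cysteine cathepsin, rose from 2.28 and 1.57 to 35.2 and 33.2 CPM (4.13 ± 0.139), with footprints from 6.85 and 4.12 to 75.4 and 49.5 CPM (3.49 ± 0.494). Ctsh (2.25 ± 0.231) rose from a low level, and Ctns (-0.95 ± 0.0898), the cystine exporter, and Sort1 (-0.93 ± 0.109), a sorting receptor, fell. At 2 h of KCl Ctsk (3.16 ± 0.234) and Fnip1 (0.98 ± 0.0916), a folliculin partner, rose, and Vps18 (-1.48 ± 0.0864) and Idua (-0.68 ± 0.104) fell. At 7 h Ctsk (2.62 ± 0.247) rose and Uvrag, which acts in autophagosome and endosome maturation, rose from 46.2 and 47.2 to 165 and 187 CPM (1.91 ± 0.0665). Idua (-0.89 ± 0.106) and Sgsh (-0.88 ± 0.0953) fell, and like Naglu both code for enzymes of heparan sulfate breakdown.

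Between stress conditions the largest called changes in the list's RNA were these. At 42 °C against 44 °C, Ctsk (1.78 ± 0.208) and Wipi1 (0.64 ± 0.0779) were higher and Rragd (-2.0 ± 0.12) and Vps18 (-1.74 ± 0.0504) lower. From 2 h to 7 h of H2O2, Ctsf (3.86 ± 0.141) and Ctsh (2.30 ± 0.247) rose and Sort1 (-0.91 ± 0.111) and Ctsk (-0.85 ± 0.271) fell. From 2 h to 7 h of KCl, Slc36a1 (1.77 ± 0.0767) and Vps18 (1.44 ± 0.0879) rose, and Mitf (-1.29 ± 0.114) and Scarb2 (-0.91 ± 0.063), of which Mitf is a relative of Tfeb, fell. Under H2O2 against KCl at 2 h, Vps18 (1.68 ± 0.0868) and Idua (1.18 ± 0.103) were higher and Ctsk (-1.65 ± 0.205) and Uvrag (-0.91 ± 0.0683) lower, and at 7 h Ctsf (4.29 ± 0.155) and Ctsh (1.76 ± 0.244) were higher and Uvrag (-2.18 ± 0.0687) and Ctsk (-1.95 ± 0.247) lower.

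In footprints 60 genes of the wider list were tested. After 7 h of H2O2 13 rose and 2 fell, 21.7% and 3.33% of those tested against 17.2% and 10.6% of all genes, and at 7 h of KCl 15 rose and 2 fell, 25% and 3.33% of those tested against 10.5% and 9.83% of all genes. After 2 h of H2O2 0 were called by edgeR, where 1.91% of all genes were called. An unadjusted p under 0.05 was reached by 17, a share that was not computed over all genes, so it sets the list apart in no way. At 2 h of KCl Gabarapl1 (0.88 ± 0.238), an LC3 relative, was the one called, where 6.86% of all genes were called. The largest footprint changes were rises of Ctsf and Tcirg1 (1.80 ± 0.218) and falls of Gnptab (-0.88 ± 0.286) and Mtor (-0.61 ± 0.178) at 7 h of H2O2, and rises of Uvrag (2.32 ± 0.252) and Fnip1 (1.70 ± 0.298) and falls of Idua (-1.23 ± 0.336) and Sgsh (-1.04 ± 0.254) at 7 h of KCl. From 2 h to 7 h of H2O2, Ctsf (2.97 ± 0.49) and Man2b1 (1.56 ± 0.212) rose and Arsa (-0.95 ± 0.262) and Galns (-0.83 ± 0.254) fell, and from 2 h to 7 h of KCl Slc36a1 (2.17 ± 0.368) and Uvrag (1.52 ± 0.244) rose and Sgsh (-1.37 ± 0.255) and Idua (-1.19 ± 0.345) fell. In translational efficiency, 5 were higher and 1 lower at 2 h of H2O2, 8.33% and 1.67% of those tested against 3.98% and 7.46% of all genes. The largest were Lamtor2 (1.06 ± 0.216) and Ctns (0.93 ± 0.202), which were higher, and Fnip2 (-0.91 ± 0.253), which was lower. After 7 h of H2O2 6 were higher and 0 lower (4.69% and 4.57% of all genes), led by Ctns (1.47 ± 0.205) and Vps18 (1.01 ± 0.194). Under KCl at 2 h, Vps18 (0.84 ± 0.215) and Ctns (0.75 ± 0.214) were higher and Fnip2 (-0.97 ± 0.265) lower (3.58% and 9.18% of all genes). At 7 h of KCl Flcn (0.64 ± 0.181) was higher (1.69% of all genes).

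The authors' deposited table of neighbouring genes lists 6399 pairs with a downstream-of-gene transcript (DoG, the extension of a transcript beyond its gene's usual end) called in at least 1 of the 16 RNA libraries, and 38 of these pairs hold a member. A member is upstream in 25 pairs and downstream in 14, because Atp6v1f and Atp6v1fnb form a pair of their own. DoGs from Lamp1 towards Tmco3 and from Lamp2 towards Tmem255a were called in 16 of 16 libraries, controls included. DoGs pointing at a member were called most often from Ergic1 towards Atp6v0e (14 libraries) and from Asl towards Gusb (13 libraries). Read-in, in which such a transcript enters the neighbour, was called by the authors for 2 of the 38 pairs, where 349 of all pairs (5.45%) had such a call. From Dph2 into Atp6v0b, read-in was called in both libraries at 2 h of KCl. The authors' deposited table gives a read-in estimate, a ratio, of 0.0129 and 0.00816 there, of 0.00512 and 0.00471 after 2 h of H2O2, and of 0.000697 and 0.000363 after 7 h of KCl. In the control the estimates were 0.000247 and 0. At 7 h of KCl, where Atp6v0b RNA was highest in that experiment, they lay between those of the control and of 2 h, and read-in was not called. The part of read-in in the rise of Atp6v0b was not tested. From Mcoln1 into Pnpla6, read-in was called in 7 libraries, among them 1 library of each control. Atp6v1fnb, which lies next to Atp6v1f, had 6 and 12 counts at 2 h of H2O2, 4 and 1 after 2 h of KCl, and 1 and 0 in the control. The read-in estimate is used as deposited, since the labels and files do not state its formula. A DoG of Atp6v1f was called in 3 libraries, 1 of them at 2 h of H2O2, and read-in in 0. The other members too low to test had at most 7 counts in any RNA library: Atp6v1c2 reached that number in a single library at 2 h of H2O2, Atp6ap1l had at most 3 counts, and Atp6v1e2, Atp6v1b1 and Atp6v0d2 at most 2.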

How the data were processed

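The submitters' processing notes name STAR, RSEM, Bowtie and the build mm10, with no version or role. Per the file headers, the authors deposited RSEM expected counts (already whole numbers) and TPM per gene, and for pairs of neighbouring genes DoG and read-in calls and a read-in ratio, with no formula stated. In the footprint tables, 12 columns with no labelled sample were not used. Expected counts were tested with edgeR 4.0.16 (R 4.3.3): TMM scaling, filterByExpr, quasi-likelihood F test and Benjamini-Hochberg adjustment over all tested genes, at 0.05. Heat RNA, H2O2 and KCl RNA, and footprints were fitted separately, each with all its groups, and efficiency as an interaction over 20 libraries with TMM within each kind. Standard errors derive from the fits. Alternatives were DESeq2 1.42.0, limma 3.58.1 on log2(TPM + 1) or with voom, upper quartile scaling, no filter, only the compared groups, a replicate block, an adjusted p of 0.01 and leaving out each library. DESeq2, upper quartile scaling and the fit of only the compared groups were not run for efficiency, and voom was run for efficiency alone. The testing scripts were checked on simulated data. Depth was about 24441900 to 45244400 expected counts per RNA library and 1460750 to 5168540 per footprint library, so footprint values are less precise. The members, lists and tests were chosen with earlier results of these data known. By rule, values per library are given for Tfeb, Tfe3, Mcoln1, Lamp1, Lamp2, Ctsb, Ctsd and Ctsl, and for the 3 largest called rises and falls per RNA comparison of a stress with its control (average log2 CPM of at least 3). In footprints and efficiency the 2 largest called rises and falls are given, and in the wider list the 2 largest per comparison are named. Other members shown were chosen by role after their values were seen. The blood marker Cd68 was also chosen after its values were seen.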

Additional observations from a re-analysis of the deposited data

Results flagged for a closer look

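Some members were called in opposite directions in 2 stress conditions of the same experiment, with the direct comparison of those conditions also called by edgeR's quasi-likelihood test. Each is given as the log2 difference in RNA between the conditions, followed by the log2 fold change of the first and of the second condition against control. For 42 °C (8 h) against 44 °C (2 h) these were Neu1 (-1.04, from -0.60 and 0.44), Gla (-0.80, from -0.28 and 0.52), Grn (-0.64, from -0.26 and 0.37), Hexa (-0.53, from -0.23 and 0.30), Atp6v0d1 (-0.52, from -0.22 and 0.30), Lamp2 (-0.49, from -0.20 and 0.30), Gaa (-0.45, from -0.32 and 0.13), Ctsa (-0.41, from -0.21 and 0.20) and Tpp1 (-0.36, from -0.20 and 0.16), which were lower at 42 °C and higher at 44 °C than in the control. Atp6v1h differed in the other direction, by 0.49, from 0.30 and -0.20. The direct comparison held in every alternative for these 10. Against control, Atp6v1h lost its call at 42 °C on the TPM scale, and Gaa lost its call at 44 °C without control replicate 1 or 44 °C replicate 2.

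Between 7 h and 2 h of H2O2 the stalk subunit gene Atp6v1g1 differed by 0.39, from 0.18 and -0.21. Between H2O2 and KCl, the catalytic subunit gene Atp6v1a (-0.57, from -0.29 and 0.28) differed at 2 h. At 7 h the members were Atp6v1a (-1.39, from -1.0 and 0.39), Ctsa (-1.0, from -0.27 and 0.73), Atp6v0e2 (1.17, from 0.56 and -0.61), Atp6v1g1 (0.83, from 0.18 and -0.65) and Gusb (0.53, from 0.23 and -0.30). Atp6v0e2 was low, at 2.97 and 2.02 CPM under H2O2 and 1.11 and 1.15 CPM under KCl. These direct comparisons held in every alternative, but several of the calls against control did not. Atp6v1g1 lost its call at 2 h of H2O2 without H2O2 replicate 2, and at 7 h of H2O2 with upper quartile scaling, on the TPM scale and without control replicate 1 or H2O2 replicate 1. Atp6v1a lost its call at 2 h of KCl on the TPM scale and without KCl replicate 2. Of the 7 h H2O2 calls, Ctsa lost its own without control replicate 1 or H2O2 replicate 2, Gusb without control replicate 2 or H2O2 replicate 1, and Atp6v0e2 with DESeq2, on the TPM scale and without control replicate 1 or H2O2 replicate 1. Atp6v0e2 also lost its call at 7 h of KCl with DESeq2 and without any 1 of the 4 libraries. Comparisons within an experiment share the control libraries.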

How the results depend on the processing

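Calls of single members kept their direction and their side of the threshold in 298 of 313 cases with DESeq2, 305 of 314 with no filter on low counts, 293 of 313 with only the compared groups in the fit, 270 of 313 with upper quartile scaling, 253 of 314 on the log2(TPM + 1) scale and 978 of 1260 with a library left out. On the TPM scale the sign turned at 42 °C against control for Atp6ap1 (-0.0066), Atp6ap2 (-0.0882), Ctsl (-0.0772) and Ctsz (-0.0339), and at 42 °C against 44 °C for Ctsz (-0.15) and Tfe3 (-0.0515). The cause was not tested. The number of members called moved by more than 1.5 times in these cases. At an adjusted p under 0.01 it was 9 at 2 h of H2O2, 5 for H2O2 against KCl at 2 h, and in footprints 0 at 2 h and 2 at 7 h of H2O2, 4 at 7 h of KCl, and 1 between 7 h and 2 h of H2O2 and 1 of KCl. On the TPM scale it was 15 at 2 h of KCl and 5 for H2O2 against KCl at 2 h, in footprints 0 at 2 h of H2O2, 7 at 7 h of KCl and 4 between 7 h and 2 h of KCl, and in efficiency 2 at 2 h and 2 at 7 h of H2O2. DESeq2 gave 2 in footprints at 2 h of H2O2. With only the compared groups, footprints gave 0 at 2 h and 13 at 7 h of H2O2. With each library left out in turn, the count in RNA ranged from 10 to 16 at 2 h of H2O2, 13 to 26 at 2 h of KCl and 4 to 11 between them. In footprints it ranged from 0 to 1 at 2 h and 2 to 3 at 7 h of H2O2, 1 to 8 at 7 h of KCl, 0 to 7 between 7 h and 2 h of H2O2 and 1 to 6 of KCl. In efficiency it ranged from 1 to 4 at 2 h of H2O2, 0 to 2 at 7 h of H2O2 and 0 to 1 at 7 h of KCl. A group left with 1 library is assumed to vary like the others. Same-numbered replicates deviated together with correlations of -0.0247 to 0.117 in the heat RNA and -0.0531 to 0.0537 in the other RNA. In footprints the correlations ranged from -0.384 to 0.417, with 6 of 10 pairs of groups over 0.1. The negative ones all involved the 2 h H2O2 group. The main fits did not pair libraries by number, so any effect shared by same-numbered footprint libraries stayed in their spread. With the replicate block all 314 calls were kept, and the number called in efficiency was 3 at 2 h and 1 at 7 h of H2O2. The shallow footprint libraries limit what can be called there. The wider list was not refitted under these alternatives.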
